A study of Beta vulgaris subsp. vulgaris with 30 samples.

Results

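The subject is a set of 56 sugar beet (Beta vulgaris subsp. vulgaris) genes whose transcripts were steady while seedlings stood in water or ethanol and low after a freezing treatment. They are 56 of the 21587 genes in the count table, or 0.259%. They were selected on their measured levels in these same libraries. Levels are in CPM, each count divided by its library total and multiplied by 1000000, and the median of each group of 6 libraries, plus 1, was taken. A gene was kept if its highest group median was at least 10 CPM and its mean over all libraries was below 2000 CPM. Each frozen group then had to stand at 0.5 times its own unfrozen group or less, a quotient called the freezing ratio here. Both unfrozen pretreated groups had to stand between 0.67 and 1.5 times the level before pretreatment. The level conditions left 6256 genes and the pretreatment window 4695 of these, of which the 56 are 1.19%. A further 40 genes met the level and freezing conditions but lay outside the window, 31 of them raised and 9 lowered over pretreatment.

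Shoots were sampled in 5 groups of 6. Ethanol-frozen shoots had 3 days of ethanol and then freezing temperature, and water-frozen shoots had 3 days of water and then freezing temperature. Ethanol and water shoots had the same pretreatments without freezing, and a last group was taken before pretreatment. The group labels carry 2 h beside the freezing temperature, without saying from when they were counted. The series text gives 7-day-old beet seedlings in soil at 22 °C, pots dipped in 80 mM ethanol, and a night between -2.1 and -3.5 °C in a rotating incubator. The protocols attached to the samples instead describe Arabidopsis plants of 14 days, a 6-day ethanol pretreatment at 20 mM and -4.0 °C. The genes carry beet identifiers on the beet assembly EL10.2, so the series text is followed. The labels give no clock time for any harvest. The effect of freezing therefore cannot be told apart from that of the hour. The labels name no cultivar, and nothing says that replicates came from separate pots, so tests measure only the spread between these samples.

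A transcript's level in a tissue is set by how fast it is made and how fast it is degraded. In plants moved to the cold, a large share of the transcriptome changes, with cold-induced protective genes on one side and many genes of growth and metabolism on the other. Ethanol given through the roots has been used in several plants as a priming agent ahead of abiotic stress. In RNA from whole shoots, fewer cells of a type and less RNA per cell cannot be told apart. The tables used here give none of the 56 genes a product name, so no role is stated for any of them. Of the 56, 51 matched a RefSeq gene by position, all 51 of them protein coding with a locus number as symbol.

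Library totals ran from 3379082 to 17868082 counts. The set held 0.488 ± 0.049% of the counts of ethanol-frozen libraries and 0.554 ± 0.154% of those of water-frozen ones. It held 1.29 ± 0.0596% in ethanol, 1.27 ± 0.0346% in water and 1.17 ± 0.0733% in libraries taken before pretreatment (SD, n = 6 each). The frozen range, 0.382 to 0.821%, lay below the unfrozen one, 1.09 to 1.39%. The rule fixes that order, so it is a description and carries no test.

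**Figure D1:**
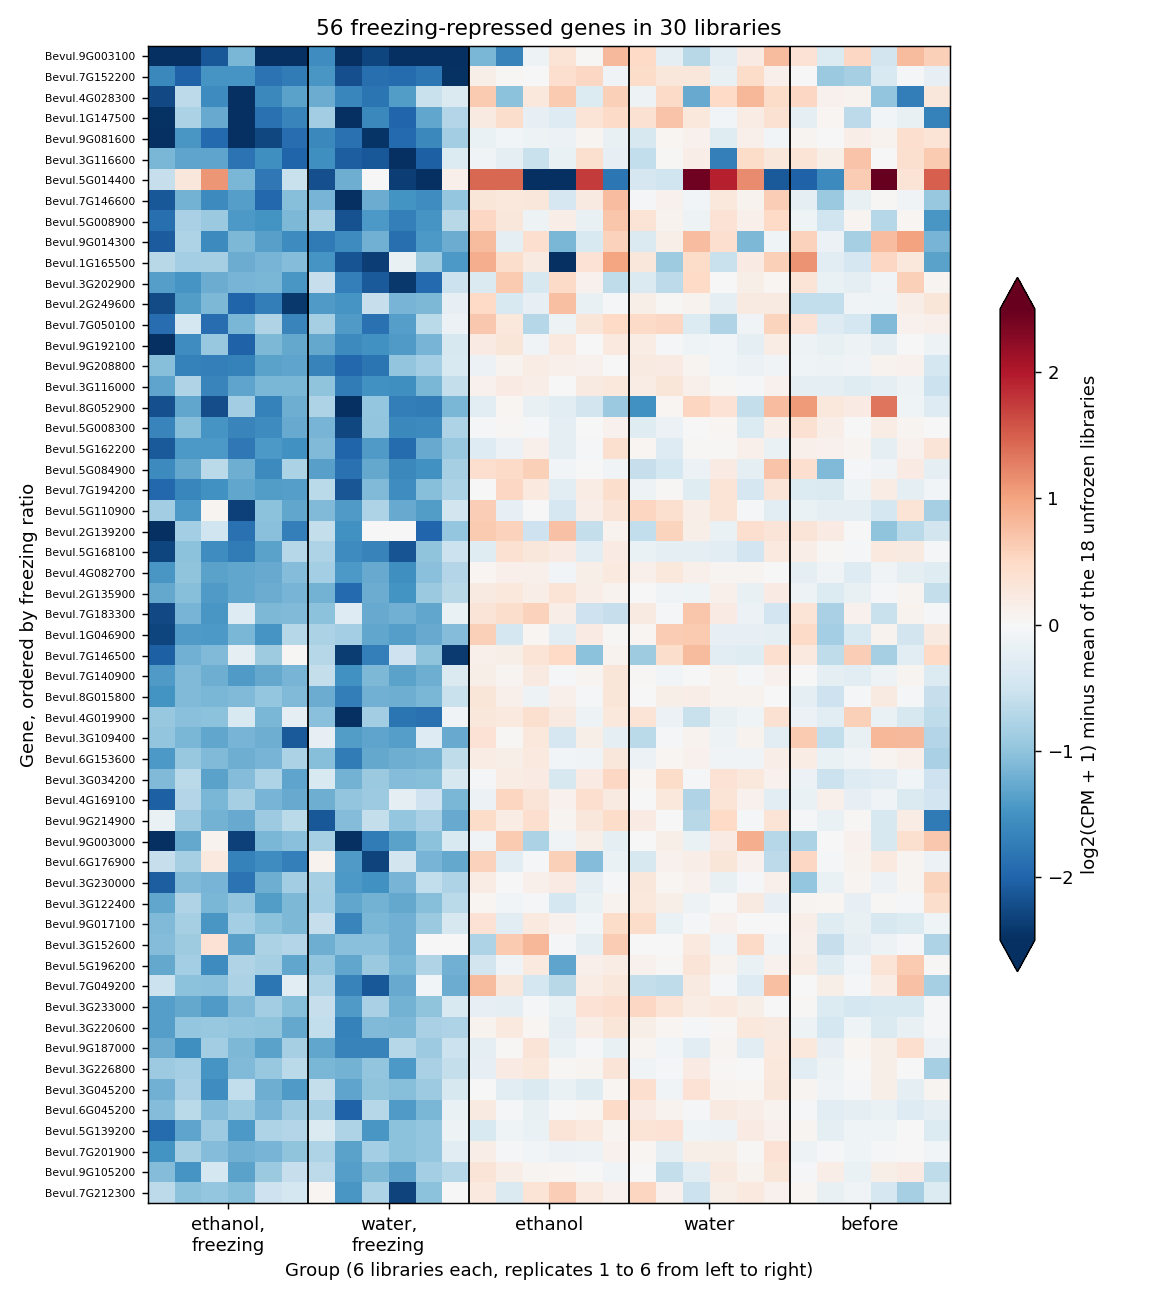
Each row is 1 of the 56 genes and each column 1 of 30 libraries in 5 groups of 6; colour gives log2(CPM + 1) minus the mean of the 18 unfrozen libraries, with values beyond 2.5 drawn at the end of the scale. The 12 frozen columns are mostly blue, the last water-frozen column (replicate 6) is the palest of them, and the row of Bevul.5G014400 alternates between red and blue among the unfrozen libraries.

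Freezing after ethanol gave a median log2 change of -1.53 over the set, and 54 of the 56 genes were called lower by edgeR (quasi-likelihood, adjusted p below 0.05). Over all 14128 genes tested, 6.53% were called lower in that comparison. Freezing after water gave a median log2 change of -1.34 and called 55 of the 56 lower, against 6.09% of all genes tested. All 54 called after ethanol were among the 55, and 4.57% of all genes were called lower after both pretreatments. The rule used both contrasts, so these shares show only how the rule and the test overlap. Bevul.5G014400 was called in neither comparison and Bevul.7G146500 not after ethanol, and both are named here because their calls were missed. The median change of all genes tested was 0.09 after ethanol and 0.08 after water with the scaling used for these tests (TMM, a trimmed mean of ratios between libraries). It was 0.26 after each pretreatment when library totals alone were used, under which the set's medians were -1.36 and -1.17. Over all genes tested, 817 were called higher and 923 lower after ethanol with TMM, and 1365 higher and 641 lower with totals alone. After water these numbers were 709 and 861 with TMM, and 1249 and 574 with totals alone.

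Complete separation of libraries was less common than a call. All 6 ethanol-frozen libraries lay below all 6 ethanol libraries for 40 of the 56 genes, against 2.92% of all genes tested. All 6 water-frozen libraries lay below all 6 water libraries for 36, against 2.23%. For 18 genes the 12 frozen libraries all lay below the 18 unfrozen ones, as they did for 0.439% of all genes tested. The rule chose the members for low frozen levels in these same libraries, so these shares are a description. All 18 are among the 34 genes with at least 50 CPM on average in unfrozen libraries, and none is among the 22 below that level.

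Members differed widely in abundance. Their mean over the 18 unfrozen libraries ran from 9.17 to 1718 CPM with a median of 80.7 CPM, against a median of 22.9 CPM in the 4639 other genes that met the level and window conditions. Below 20 CPM lay 9 genes, from 20 to 100 CPM 24, from 100 to 500 CPM 16, and above 500 CPM 7. The median freezing change after ethanol was -1.64, -1.60, -1.33 and -1.57 from the lowest of these classes to the highest, and after water -1.67, -1.36, -1.26 and -1.37. The median SE after ethanol was 0.39 in the lowest class and 0.17 in the highest.

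The 8 most abundant members were Bevul.9G208800, Bevul.7G140900, Bevul.3G116000, Bevul.9G081600, Bevul.5G162200, Bevul.3G230000, Bevul.6G153600 and Bevul.9G017100, and in each the frozen libraries of either pretreatment lay apart from their own unfrozen group. Bevul.9G208800 (LOC104904708; chromosome 9, 52469260 to 52472515, minus strand) had a lowest, median and highest level of 525, 599 and 818 CPM in ethanol-frozen libraries and 1537, 1820 and 1950 CPM in ethanol ones. It had 437, 701 and 1304 CPM in water-frozen libraries and 1536, 1712 and 1987 CPM in water ones. Before pretreatment it had 1264, 1594 and 1852 CPM. The highest water-frozen value, from replicate 6, reached above the lowest value before pretreatment, so the 12 frozen libraries were not all below the 18 unfrozen ones. Its log2 change with freezing was -1.68 ± 0.19 after ethanol and -1.37 ± 0.19 after water (SE).

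Bevul.7G140900 (LOC104908571; chromosome 7, 47008417 to 47011060, plus strand) had 559, 630 and 697 CPM in ethanol-frozen libraries and 1462, 1620 and 1862 CPM in ethanol ones. In water-frozen libraries it had 522, 666 and 1166 CPM, and in water ones 1440, 1512 and 1621 CPM. Its ethanol-frozen libraries lay close together, with an SD of 56.6 CPM, whereas the SD of its water-frozen libraries was 253 CPM. Bevul.3G116000 (LOC104889042; chromosome 3, 17549398 to 17552554, plus strand) had near-equal frozen medians, 561 CPM after ethanol and 528 CPM after water. Its unfrozen medians were 1499 CPM in ethanol and 1431 CPM in water, and 1103 CPM before pretreatment. Its frozen and unfrozen ranges were apart after both pretreatments. The log2 changes of the other 5 abundant members ran from -2.20 to -1.38 after ethanol and from -1.75 to -1.17 after water.

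Bevul.9G081600 (LOC104903439; chromosome 9, 27054957 to 27056887, minus strand) fell furthest of these 8. It had 158, 286.5 and 447 CPM in ethanol-frozen libraries and 1081, 1116 and 1277 CPM in ethanol ones. It had 223, 366 and 666 CPM in water-frozen libraries and 930, 1221 and 1346 CPM in water ones, and 1210 to 1636 CPM before pretreatment. No frozen library reached any unfrozen one, and the log2 change was -2.20 ± 0.22 after ethanol and -1.75 ± 0.22 after water.

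**Figure D2:**
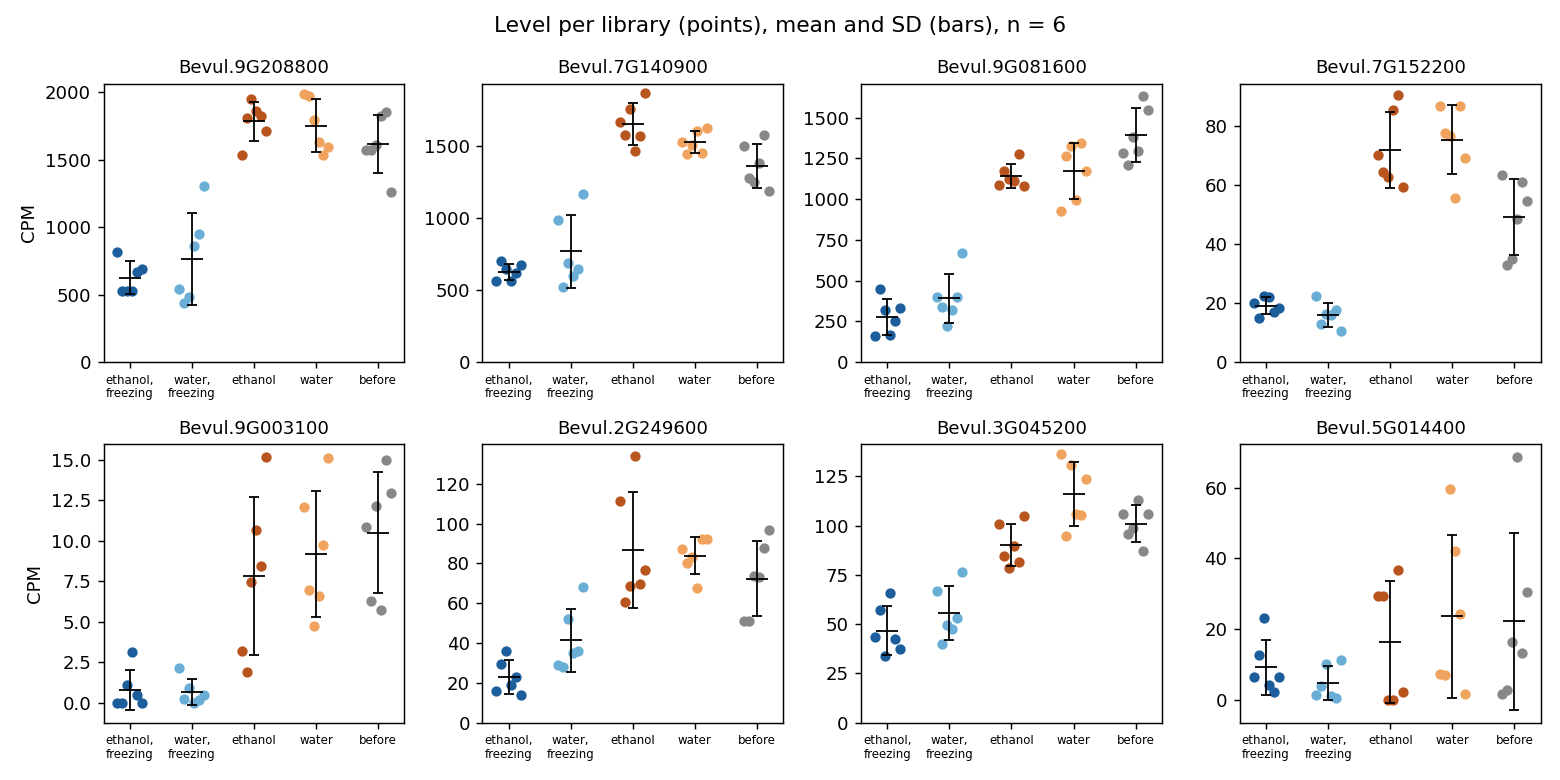
CPM of 8 genes in each library, with the 5 groups on the horizontal axis, points for libraries and bars for the mean and SD (n = 6). The frozen libraries of Bevul.9G081600 and Bevul.7G152200 lie below every unfrozen one, those of Bevul.9G003100 lie between 0 and 3.17 CPM, and Bevul.5G014400 spans 0 to 68.6 CPM among unfrozen libraries.

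Ranked by the geometric mean of the 2 freezing ratios, the lowest members were Bevul.9G003100, Bevul.7G152200, Bevul.4G028300, Bevul.1G147500, Bevul.9G081600 and Bevul.3G116600. Bevul.9G003100 (LOC104902529; chromosome 9, 541379 to 543951, minus strand) had 0, 0.252 and 3.17 CPM in ethanol-frozen libraries and 1.90, 7.98 and 15.2 CPM in ethanol ones. It had 0, 0.383 and 2.14 CPM in water-frozen libraries and 4.75, 8.34 and 15.1 CPM in water ones. After ethanol the groups overlapped, and after water they did not. Its fitted log2 changes, -3.50 ± 0.73 and -3.83 ± 0.74, are the largest falls in the set and rest on few frozen counts.

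Bevul.7G152200 (LOC104907276; chromosome 7, 49612746 to 49613549, minus strand) had 14.9, 19.05 and 22.2 CPM in ethanol-frozen libraries and 59.1, 67.2 and 90.3 CPM in ethanol ones. It had 10.6, 16.2 and 22.3 CPM in water-frozen libraries and 55.5, 77.02 and 86.7 CPM in water ones, and 32.7, 51.4 and 63.3 CPM before pretreatment. This gene combined a deep fall with tight frozen values, and its 12 frozen libraries all lay below its 18 unfrozen ones. Its water-frozen replicate 6 was the lowest of that group, at 10.6 CPM, whereas that library was the highest of its group for the summed set. Bevul.1G147500 (chromosome 1, 54981871 to 54982179, plus strand), with no RefSeq match, had 0.527 to 5.12 CPM in ethanol-frozen libraries and 7.40 to 13.7 CPM in ethanol ones. It had 0 to 5.35 CPM in water-frozen libraries and 9.01 to 16.3 CPM in water ones, so both pairs of groups lay apart. Bevul.4G028300 (LOC104883384; chromosome 4, 3421229 to 3422105, plus strand) overlapped in both pairs. Bevul.3G116600, a gene model of 21894 bases on chromosome 3 (17684306 to 17706199, minus strand) and the longest of the set, overlapped after water.

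Bevul.5G014400 (chromosome 5, 1886718 to 1890513, minus strand), singled out after its values were seen, entered by its group medians while varying between libraries of every group. It had 2.24, 6.57 and 23.2 CPM in ethanol-frozen libraries and 0, 15.7 and 36.8 CPM in ethanol ones. It had 0.708, 2.64 and 11.3 CPM in water-frozen libraries and 1.63, 15.9 and 59.5 CPM in water ones. Levels before pretreatment were 1.76, 14.9 and 68.6 CPM. The groups overlapped in every comparison, and its coefficient of variation was the highest of the set in all 3 unfrozen groups. It was chosen again in 18 of the 30 selections that left out 1 library, as were Bevul.2G139200 and Bevul.5G139200, and no member was chosen less often. The lowest level of ethanol shoots was in replicate 4, the library with the fewest counts. Ethanol replicates 3 and 6 were also low, at 0.117 and 2.21 CPM, with totals of 8549070 and 15804988 counts.

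The freezing limit cut through a dense range of ratios. In 45 of the 56 members the larger of the 2 freezing ratios was above 0.4. Just inside the limit stood Bevul.3G045200 (larger ratio 0.4999) and Bevul.2G139200 (0.4991), and just outside stood Bevul.5G033700 (0.5056) and Bevul.7G155200 (0.5063), which are no members. Median ratios were 0.411 after ethanol and 0.429 after water. With TMM-scaled CPM in the rule, 135 genes were chosen, 53 of the 56 among them. A limit of 0.4 chose 11 genes and one of 0.6 chose 184. When each library was left out in turn, 44 to 63 genes were chosen and 24 of the 56 were chosen every time. Without water-frozen replicate 6 the number was 63, and without water-frozen replicate 2 it was 44.

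**Figure D3:**
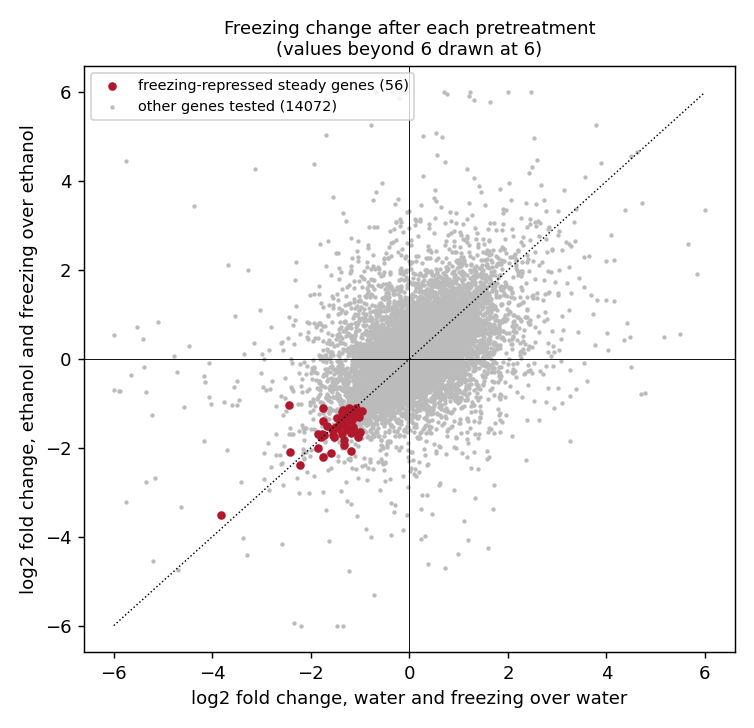
Log2 fold change with freezing after water (horizontal) and after ethanol (vertical) for the 56 genes in red and the other genes tested in grey, with values beyond 6 drawn at 6. The 56 lie in the lower left, between -3.83 and -0.96 after water and between -3.50 and -1.03 after ethanol. The rule placed them there through quotients of group medians and does not set these fitted values.

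Over the pretreatment days the set's group medians lay within the window by construction. The median fitted log2 change against the state before pretreatment was 0.12 in ethanol shoots and 0.07 in water shoots. By edgeR none of the 56 was called in either comparison, where 3.77% and 3.09% of all genes tested were called. At an unadjusted p under 0.05 there were 3 of the 56 in ethanol shoots, beside 15.4% of all genes tested, and 4 in water shoots, beside 14.4%. The rule bounds the quotients of medians, not these fitted changes, and some fitted changes were larger than the window. These were -1.02 ± 0.35 for Bevul.8G052900 and -0.66 ± 0.37 for Bevul.3G116600 in ethanol shoots, and 0.67 ± 0.47 for Bevul.1G147500 in water shoots. The rule used both contrasts, so these values are a description.

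Ethanol against water in shoots that were not frozen asked whether pretreatment had set the starting level of these genes. The rule did not use this contrast, although holding both groups near the level before pretreatment bounds it. None of the 56 was called by edgeR or by DESeq2, against 0.00708% of all genes tested, and for none did the groups lie apart, against 0.297%. At an unadjusted p under 0.05 edgeR had 1 of the 56 and DESeq2 1, where 3.95% of all genes tested lay there by edgeR. The share of all genes by DESeq2 is not given here. The median log2 difference was 0.001, with 27 genes lower and 29 higher after ethanol, and 49.6% of all genes tested were lower. Bevul.3G045200 (LOC104888316; chromosome 3, 5418394 to 5421424, plus strand) had the lowest p. It had 78.6, 87.2 and 104.9 CPM in ethanol libraries and 94.7, 114.9 and 136.1 CPM in water ones. These ranges overlapped, and the log2 difference was -0.40 ± 0.17 (edgeR, Benjamini-Hochberg adjusted p = 0.9999). Its adjusted p ran from 0.516 to 1 over 18 alternatives. The next lowest p were those of Bevul.8G052900 and Bevul.3G233000, with log2 differences of -0.47 ± 0.35 and -0.23 ± 0.18. For the 7 most abundant members, all above 500 CPM, the differences lay between -0.07 and 0.09 with a median SE of 0.17. The spread behind this SE is shared with the frozen groups, in which these genes varied more.

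Ethanol against water in frozen shoots asked whether the low level reached differed between pretreatments, again a contrast the rule did not use. The rule limits it without setting it, since both frozen groups had to be low against their own unfrozen group. A gene whose level stayed high after either pretreatment could not be a member. None of the 56 was called by edgeR or by DESeq2, against 0.106% of all genes tested in either direction and 0.0849% called lower, and for none did the 2 groups lie apart, against 0.361%. At an unadjusted p under 0.05 both tools had 6 of the 56, where 3.53% of all genes tested lay there by edgeR. The share by DESeq2 is not given here. The edgeR count ran from 2 to 11 of the 56 when 1 library was left out, and members that vary together are not independent counts. The median log2 difference of the set was -0.11, with 38 genes lower and 18 higher in ethanol-frozen shoots, beside a median of 0.01 and 48.7% lower over all genes tested. The number of genes on the lower side changed most when 1 library was left out. Without water-frozen replicate 6 the median was 0.02, with 25 genes lower and 31 higher. Without ethanol-frozen replicate 2 the median was -0.17 and without water-frozen replicate 2 it was -0.22, and without ethanol-frozen replicate 1 or water-frozen replicate 1 it was -0.06.

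Bevul.2G249600 (LOC104905957; chromosome 2, 56742596 to 56743977, minus strand) had the lowest p between the frozen groups. It had 14.1, 20.9 and 35.8 CPM in ethanol-frozen libraries and 27.9, 35.3 and 68.1 CPM in water-frozen ones, and 60.6 to 133.8 CPM in ethanol and 67.6 to 92.4 CPM in water libraries. The frozen groups overlapped, and the log2 difference was -0.89 ± 0.23 (edgeR, adjusted p = 0.2101). Its adjusted p ran from 0.0781 to 0.946 over 18 alternatives, and without water-frozen replicate 6 the log2 difference was -0.64. The next lowest p were those of Bevul.9G081600, at -0.52 ± 0.21, and Bevul.7G140900, at -0.33 ± 0.15, both with an adjusted p of 0.9998. Without water-frozen replicate 6 these were -0.25 and -0.13. For the median gene an interval of 2 SE reached 0.46 to either side, since the median SE was 0.228. The fit shares 1 estimate of each gene's spread over all 5 groups. This SE therefore does not follow the spread of the frozen groups alone, which was larger for these genes. Their median coefficient of variation was 28.3% in ethanol-frozen and 34.4% in water-frozen libraries, against 20.1% in ethanol and 17.5% in water ones.

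**Figure D4:**
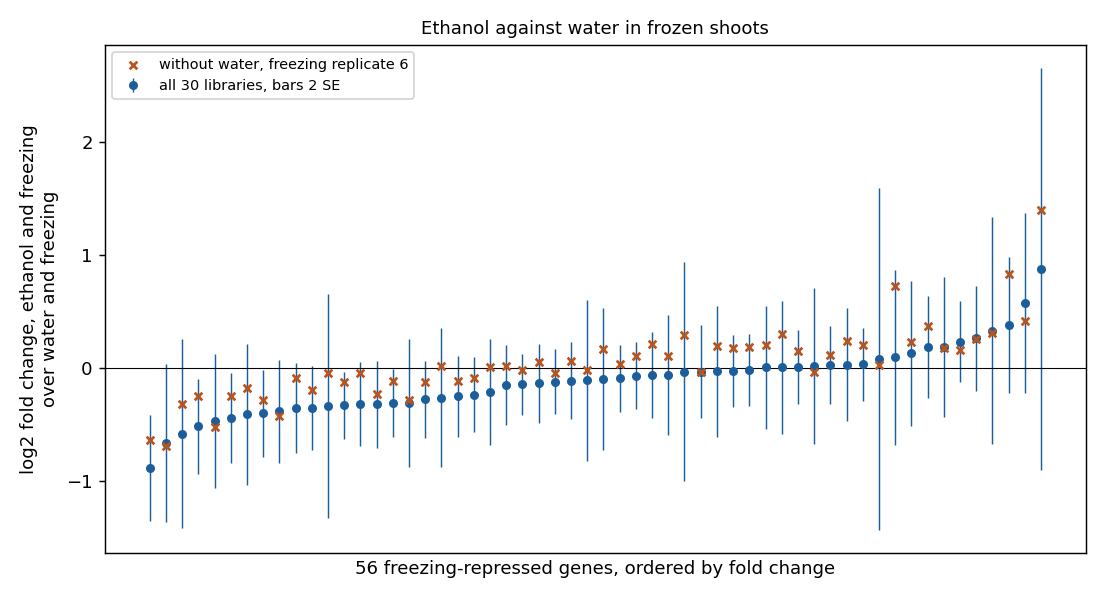
Log2 fold change of ethanol-frozen over water-frozen shoots for the 56 genes in order of size, with bars of 2 SE (circles, all libraries) and the value without water-frozen replicate 6 (crosses). With all libraries 38 genes lie below 0, and without that library 25 do.

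The difference between the freezing responses, ethanol-frozen over ethanol against water-frozen over water, called none of the 56 by edgeR or DESeq2, and 0% of all genes tested by edgeR. The rule put the same upper limit on both responses, so a gene that fell after only 1 pretreatment could not be a member. At an unadjusted p under 0.05 there were 2 of the 56 by edgeR and 4 by DESeq2, where 2.87% of all genes tested lay there by edgeR. No share by DESeq2 is given here, so its count has no background to be read against. The edgeR count ran from 1 to 5 when 1 library was left out. The median was -0.11 with 39 genes below 0, against 49.5% of all genes tested. Without water-frozen replicate 6 the median was 0.02 with 22 genes below 0. The lowest p belonged to Bevul.2G249600 (-0.89 ± 0.33), Bevul.7G194200 (-0.60 ± 0.27; chromosome 7, 56871842 to 56872708, plus strand, no RefSeq match) and Bevul.7G140900 (-0.42 ± 0.21), each with an adjusted p of 0.9999. The median SE of this difference was 0.32, so for the median gene an interval of 2 SE reached 0.64 to either side.

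Frozen libraries differed among themselves in how far the whole set had fallen. As the median over the 56 genes of log2(CPM + 1) minus the mean of the unfrozen libraries, ethanol-frozen libraries lay between -1.44 and -1.05. Water-frozen libraries lay between -1.61 in replicate 2 and -0.66 in replicate 6. These 2 extreme libraries had near-equal totals, 7823882 and 7853720 counts. In replicate 2, 49 of the 56 genes were below the lowest of the 18 unfrozen libraries, and in replicate 6, 27 were. Unfrozen libraries had 0 to 17 of the 56 below the lowest of the other unfrozen ones, with 17 in replicate 6 before pretreatment. The rule favours such counts in frozen libraries, and the share of all genes tested was not computed for them. Water-frozen replicate 6 also had the lowest TMM factor of the frozen libraries, 0.98, with the others at 1.03 to 1.17. For the comparisons of ethanol with water the values without it are given above. Without it, water-frozen against water shoots had a median log2 change of -1.52 and 54 of the 56 genes called lower. The rule used that contrast, and the share of all genes called in that fit is not given here.

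**Figure D5:**
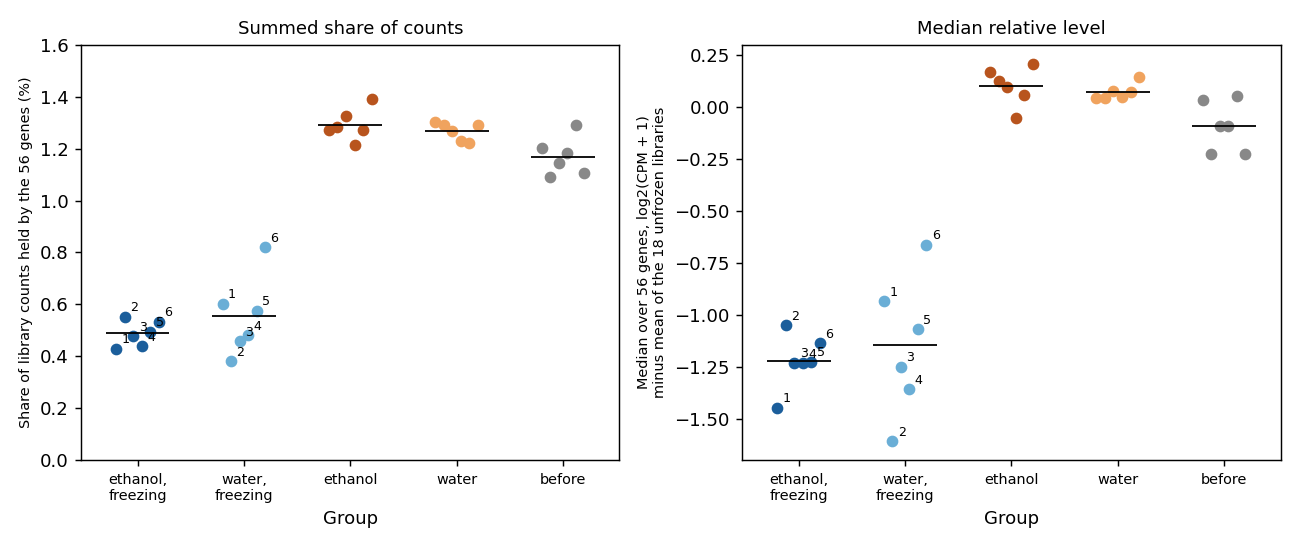
Left, the share of each library's counts held by the 56 genes; right, the median over the genes of log2(CPM + 1) relative to the unfrozen mean; points are libraries, lines group means, and numbers mark the replicates of the frozen groups. Water-frozen libraries span 0.382 to 0.821% and ethanol-frozen ones 0.43 to 0.553%.

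The relative spread of the members within a group was larger in frozen than in unfrozen libraries. The median coefficient of variation over the 56 genes was 28.3% in ethanol-frozen and 34.4% in water-frozen libraries, and 20.1% in ethanol, 17.5% in water and 21.9% before pretreatment. Without replicate 6 the water-frozen value was 30.9%. In the 4639 other steady genes the medians were 23.1%, 24.7%, 24.1%, 23.4% and 24.8% in the same order of groups. The 7 members above 500 CPM, where counting error is small, had medians of 19.2% in ethanol-frozen and 30.6% in water-frozen libraries against 8.77% in ethanol and 11.03% in water ones. None of these differences in spread was tested.

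Levels of the members varied together within the frozen groups. For the 34 members with at least 50 CPM, deviations from the group mean in the 12 frozen libraries had a median pairwise Pearson's r of 0.50 over 561 pairs, with 87% of pairs above 0. In the 18 unfrozen libraries the median was 0.118. The 1284 other steady genes at that level had medians of 0.05 and 0.047. Without water-frozen replicate 6 the frozen median was 0.386, and with TMM-scaled CPM over all 12 it was 0.575. It was 0.692 over the 6 water-frozen libraries and 0.255 over the 6 ethanol-frozen ones. The water-frozen value was not computed without replicate 6, so whether this difference holds without that library is not known. These are descriptions over few libraries that all pairs share, and carry no p. Other genes lowered by freezing were not compared. Over all 30 libraries the highest pair was Bevul.3G116000 with Bevul.4G082700, on different chromosomes, at 0.852.

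The members were spread over all 9 chromosomes, with 28 on each strand. Chromosome 3 held 12, chromosomes 7 and 9 held 10 each, chromosome 5 held 9 and the other 5 chromosomes 2 to 4 each. As a share of the steady genes of a chromosome, chromosome 3 stood highest with 12 of 438 (2.74%) and chromosome 2 lowest with 3 of 799 (0.38%). Gene models had a median span of 3105 bases, against 4663 bases in the other steady genes, with quartiles of 1751 and 4620 against 2590 and 8031. The deposited length is the full span of a gene, introns included.

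Members were direct neighbours in 2 places. Bevul.7G146500 (LOC104908725) and Bevul.7G146600 (LOC104908724), both on the plus strand of chromosome 7 from 48261064 to 48275922, are 5797 bases apart. Bevul.7G146600 had 13.6, 21.6 and 29.3 CPM in ethanol-frozen libraries and 46.2, 75.5 and 106.4 CPM in ethanol ones, with both pairs of groups apart. Bevul.7G146500 was weaker and overlapped, with a median of 6.30 CPM in ethanol-frozen and 14.9 CPM in ethanol libraries. Bevul.9G003000 (LOC104902528) and Bevul.9G003100, both on the minus strand of chromosome 9, are 27961 bases apart. Bevul.9G003000 had medians of 3.68 CPM in ethanol-frozen and 9.22 CPM in ethanol libraries, and of 3.83 CPM in water-frozen and 10.5 CPM in water ones, with overlap in both pairs. Of the non-member genes directly beside a member, 75 were tested, and 3 (4%) were called lower after ethanol and 3 after water, beside 6.53% and 6.09% of all genes tested. Their median log2 changes were 0.08 and 0.08. Only Bevul.7G050100 and Bevul.2G139200 (3.57%) overlap another gene model, beside 2.69% of all genes on the numbered chromosomes. The use of strand in counting is not given, so their counts are uncertain, and the effect of the overlap was not checked.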

How the data were processed

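Lasy-Seq libraries, a multiplexed method primed on the poly(A) tail, were made from 200 ng of total RNA of 30 shoot samples, per the labels. The authors deposited whole read counts per gene; bcl2fastq, Trimmomatic, HISAT2, featureCounts and DESeq2 are named, per the submitters' processing notes. Those notes give the build TAIR10, whereas the file headers name EL10.2 chromosomes. Versions and the use of strand in counting are not given in the sources used here. The deposited table of scaled values was not used.

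CPM were computed from library totals, and levels are given on that scale. Tests used edgeR 4.0.16 in R 4.3.3 on the deposited counts: genes passing filterByExpr (14128, all 56 members among them), TMM factors, a quasi-likelihood fit of 5 group means to all 30 libraries, 2-sided contrasts, Benjamini-Hochberg adjustment over all genes tested and a threshold of 0.05. SE is the log2 change over the square root of F. Each gene has 1 estimate of spread shared by the 5 groups, so an SE does not follow the spread of the compared groups alone. The fitting code was tested on simulated data for ethanol-frozen against water-frozen libraries, with changes placed in genes of at least 10 CPM. It recovered 73 of 100 2-fold and 99 of 100 4-fold changes, with 5 false calls, so a 2-fold difference can be missed. Totals of 3379082 to 17868082 counts make counting error smallest in abundant genes. DESeq2 1.42.0 was an alternative, as were the settings in the closing section. Genes were paired with RefSeq EL10.2 by position where each covered at least 0.5 of the other, which matched 16275 genes (75.39%).

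The members and lists were chosen with earlier results of these data known. Genes were named as the 8 most abundant, the 6 with the lowest ratios, those beside the limit, the 3 with the lowest p in each comparison of ethanol with water, and direct neighbours, with a few others singled out after their values were seen. Same-numbered replicates did not deviate together (correlations of -0.036 to 0.054), so numbers were not treated as pairs. Product names, proteins and promoters were not used here, so the planned keyword groups, protein families and motifs were not run, and the tissue label was not checked against markers.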

Additional observations from a re-analysis of the deposited data

Results flagged for a closer look

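Of the 130 sets of 6 libraries examined for a lone extreme value, over the named genes and the summed share of the 56, 2 had one, or 1.5%, where chance gives about 1 in 20. Bevul.9G003100 stood at 3.17 CPM in ethanol-frozen replicate 4, with the other 5 libraries at 0 to 1.13 CPM. Bevul.9G017100 stood at 604.7 CPM in water replicate 1, with the others at 393.6 to 472.1 CPM.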

How the results depend on the processing

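None of the 56 genes was called between ethanol-frozen and water-frozen shoots, between ethanol and water shoots, or for the difference of the freezing responses under any of the scalings, filters, tools or left-out libraries tried. The rule limits these differences without setting them. In the main fit 0.106%, 0.00708% and 0% of all genes tested were called, in that order. At such shares 0 of 56 says nothing particular about the members. The shares of all genes under the other settings are not given here. The counts called lower by freezing were 52 to 54 after ethanol and 49 to 54 after water when 1 compared library was left out. The rule used these contrasts, and the shares of all genes called under these alternatives are not given here. The counts called over pretreatment stayed at 0 except as follows. Water shoots had 1 gene by DESeq2 and 0 to 1 over left-out libraries (1 without replicate 1 taken before pretreatment). Ethanol shoots had 2 genes when only the compared groups were fitted. The cause was not tested. The pretreatment window of the rule favours low counts here. The main fit called 3.77% of all genes tested in ethanol shoots and 3.09% in water shoots, and the shares under these alternatives are not given. The replicate block left 0 calls between the ethanol and water groups, frozen or not, and 54 after water with freezing. Replicate numbers are not pairs here, and the shares of all genes called with the block are not given. The number lower in ethanol-frozen than water-frozen shoots ran from 25 to 46 over left-out libraries. Group means in place of medians chose 47 genes, 33 of them members, a narrower window 28, and minimum levels of 5 and 20 CPM 60 and 47. Of the named genes' freezing calls, that of Bevul.2G139200 after water (log2 change -1.04) was lost under 10 of 18 alternatives, and those of Bevul.9G003000 were lost under 9 after ethanol (-1.52) and 3 after water (-1.67). Bevul.7G146500 gained a call after ethanol under 4 and Bevul.5G014400 after water under 2. Library totals in place of TMM factors, tried after seeing the data, called 52 and 51 members lower. Over all genes tested they called 641 lower after ethanol and 574 after water. The planned promoter motif and protein family steps were not run. Depth limits the 9 members below 20 CPM most.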
